A study of Mus musculus with 8 samples.

Results

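The 10 genes described here encode products of secretory epithelium: Dcpp1, Dcpp2, Dcpp3, Sbp, Sbpl, Agr2, Gp2, Crisp1, Wfdc2 and Oit1. They were selected on these data for their pattern among replicates, so that pattern is given as a description and no test is attached to it. All 10 were found, each as a single row, among 37979 listed genes, and all 10 were among the 27414 genes with FPKM (sequenced fragments relative to transcript length and to the mapped total of the library) above 0 in at least 1 library.

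The study asked how pericytes and smooth muscle cells (SMCs) of mouse skeletal muscle differ, by bulk RNAseq of 8 libraries, 4 of each cell population. Both populations were taken from the hindlimb muscle of mice of genotype Ai14+/−;SM22α-Cre+, so every library carries the same alleles: Cre driven by the SM22α promoter turns on a tdTomato reporter for good in cells that have used that promoter. Pericytes were sorted as PDGFRβ+tdTomato− cells and SMCs as PDGFRβ+tdTomato+ cells, after live gating and exclusion of CD31+ and CD45+ cells, and no treatment was applied. The 18 mice of the study were 3 to 4 months old and of both sexes, and about 60000 cells from several sorts were combined for a library. Libraries are numbered 1 to 4 in each group, and the labels do not say which mice went into which library or that equal numbers share mice.

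Exocrine glands are built of acinar cells that package proteins into granules and of duct cells that carry the secretion. Demilune cell and parotid proteins (Dcpp) and the spermine-binding proteins (Sbp, Sbpl) are secreted lectin-like proteins of salivary glands and of the male accessory glands. Agr2 is a protein disulfide isomerase of the endoplasmic reticulum that mucus-secreting cells need, Gp2 is a membrane-anchored glycoprotein of zymogen granules, Crisp1 is a cysteine-rich protein that coats sperm in the epididymis, Wfdc2 is a WAP four-disulfide core protein of airway, salivary and genital ducts, and Oit1 (Fam3d) is a secreted cytokine-like protein of the gut.

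In a bulk library, few cells of a type and little RNA per cell cannot be told apart, and this holds for all values below. Of 9 pericyte markers, 0 were higher in pericytes and 1 was higher in SMCs (Rgs5, log2 fold change −1.30, SE 0.315, limma adjusted p = 0.024), beside 10.6% and 11.2% of all genes tested. Pdgfrb, the sorting receptor, had 3.21 to 17.6 FPKM in pericyte and 15.6 to 91.5 FPKM in SMC libraries. Of 9 SMC markers, none passed the test, with Acta2 at 330 to 1258 FPKM in pericytes and 1158 to 3291 FPKM in SMCs. With the replicate number fitted as a block, 6 of the pericyte markers and 1 of the SMC markers were higher in SMCs. All 9 T and B cell genes were higher in pericytes, with a summed level of 2504 to 5039 FPKM there and 39.5 to 71.7 FPKM in SMCs. Of 6 endothelial genes, 4 were higher in SMCs, with a summed level of 48.6 to 102 FPKM in pericytes and 217 to 751 FPKM in SMCs. Among them Pecam1, which encodes the CD31 that the sort was to exclude, had 25.0 to 59.7 FPKM in pericytes and 102 to 301 FPKM in SMCs. A supplementary legend of the paper writes the gate of both populations as CD31+, whereas its main text excludes CD31+ cells. The group names are used here for the sort gates.

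Dcpp1, Dcpp2, Dcpp3, Sbp and Sbpl are neighbours. On NCBI Build 37 they occupy 74.0 kb of chromosome 17, from the start of Dcpp1 to the end of Sbpl, and 0 other protein-coding genes lie wholly between them. Dcpp1 is at chr17:24017843-24019820, Dcpp2 at chr17:24017848-24037754, Dcpp3 at chr17:24054425-24056408 and Sbp at chr17:24079342-24087147, all on the plus strand, and Sbpl is at chr17:24090052-24091886 on the minus strand. The annotated Dcpp2 gene covers 1973 bases of Dcpp1, because 1 of its transcripts starts there. The other 5 genes are spread over the genome: Agr2 at chr12:36719494-36730674 (plus), Gp2 at chr7:126586057-126602786 (minus), Crisp1 at chr17:40430707-40456156 (minus), Wfdc2 at chr2:164387913-164394010 (plus) and Oit1 at chr14:9181462-9211277 (minus).

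The 150 bases before the start of Dcpp1, Dcpp2, Dcpp3 and Sbpl are printed here because the 3 Dcpp genes, which were high in replicates 3 and 4 of both groups, are almost identical there. They were read from NCBI Build 37, run 5′ to 3′ on the gene's strand, and capitals mark the letters TATAA on that strand. The windows are chr17:24017693-24017842 (plus strand), chr17:24035539-24035688 (plus strand), chr17:24054275-24054424 (plus strand) and chr17:24091887-24092036 (minus strand).
Dcpp1: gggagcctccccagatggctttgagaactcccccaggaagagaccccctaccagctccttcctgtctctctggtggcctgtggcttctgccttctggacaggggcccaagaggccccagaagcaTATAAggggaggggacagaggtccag
Dcpp2: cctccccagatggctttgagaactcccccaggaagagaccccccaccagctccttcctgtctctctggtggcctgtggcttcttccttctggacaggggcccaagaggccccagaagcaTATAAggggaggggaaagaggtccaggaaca
Dcpp3: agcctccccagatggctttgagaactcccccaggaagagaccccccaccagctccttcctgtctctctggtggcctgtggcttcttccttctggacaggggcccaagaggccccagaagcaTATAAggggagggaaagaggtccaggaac
Sbpl: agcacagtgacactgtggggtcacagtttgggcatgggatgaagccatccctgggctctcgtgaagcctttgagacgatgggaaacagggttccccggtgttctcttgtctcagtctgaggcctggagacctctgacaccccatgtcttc

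The letters TATAA stood 26, 31 and 29 bases before the start of Dcpp1, Dcpp2 and Dcpp3, and were not in the window of Sbpl. Of 70018 windows of the same length before annotated transcript starts, 8.1% held TATAA on the transcript's strand. AGGAAG, the core of ETS factor motifs with its flanks, was in the windows of Dcpp1, Dcpp2 and Dcpp3 when both strands were searched, as in 19.5% of all windows. It was also in the window of Sbp, which is not printed here. AGAACA, a half-site of androgen and glucocorticoid receptors, was found, with both strands searched, in the window of Sbpl but not in those of the Dcpp genes, and in 8.32% of all windows. These matches describe letters and do not show binding. The matches to different motifs do not overlap in these windows.

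The Dcpp copies were close in their transcripts too, though less so than in these windows. Coding sequences were 93.8% identical between Dcpp1 and Dcpp2, 93.8% between Dcpp1 and Dcpp3 and 95.9% between Dcpp2 and Dcpp3, over aligned bases with gaps left out. Upstream windows were 97.9%, 97.9% and 100% identical for the same pairs. Sbp and Sbpl were 93.9% identical in coding sequence, and any Dcpp gene against Sbp or Sbpl gave 64.3% to 66.9% in coding sequence. Of all stretches of 100 bases in the Dcpp1 transcript, 13.1% were found unaltered in Dcpp2 and 19.9% in Dcpp3, and 19.9% of those in Sbp were found in Sbpl. How reads with several matching places were shared is not given in the sources used here, so the split of values among Dcpp1, Dcpp2 and Dcpp3, and between Sbp and Sbpl, is uncertain.

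Dcpp3 reached the highest level of the 10 genes. Its level was 4.04, 1.58, 1247 and 558 FPKM in pericyte replicates 1 to 4, and 2.00, 2.96, 18224 and 815 FPKM in SMC replicates 1 to 4. Replicates 3 and 4 were far above replicates 1 and 2 in both groups, and Dcpp3 was the highest gene of the whole SMC replicate 3 library, with 2.6% of its summed FPKM. Dcpp2 had 0.711, 1.05, 397 and 313 FPKM in pericytes and 0.819, 1.37, 4845 and 377 FPKM in SMCs. Dcpp1 had 0.699, 1.55, 379 and 309 FPKM in pericytes and 0.23, 0.311, 3418 and 371 FPKM in SMCs. In SMC replicate 3, Dcpp2 ranked 7 and Dcpp1 ranked 14 among all genes, whereas replicates 1 and 2 of both groups held at most 1.55 FPKM of either.

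Sbp and Sbpl, whose transcripts are close copies, had their highest values in different groups. Sbp was listed at 0 in pericyte replicates 1 and 2, and had 9.51 and 0.267 FPKM in replicates 3 and 4. In SMCs Sbp had 0.071, 0, 192 and 1.79 FPKM. Only replicate 3 of either group was above 2 FPKM. Sbpl had 11.2, 9.68, 5537 and 116 FPKM in pericytes and was listed at 0 in all 4 SMC libraries. It ranked 9 among all genes of pericyte replicate 3. So the library with the most Dcpp1, Dcpp2, Dcpp3 and Sbp, SMC replicate 3, had Sbpl at 0, while the pericyte library of the same number had 5537 FPKM of it.

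**Figure D1:**
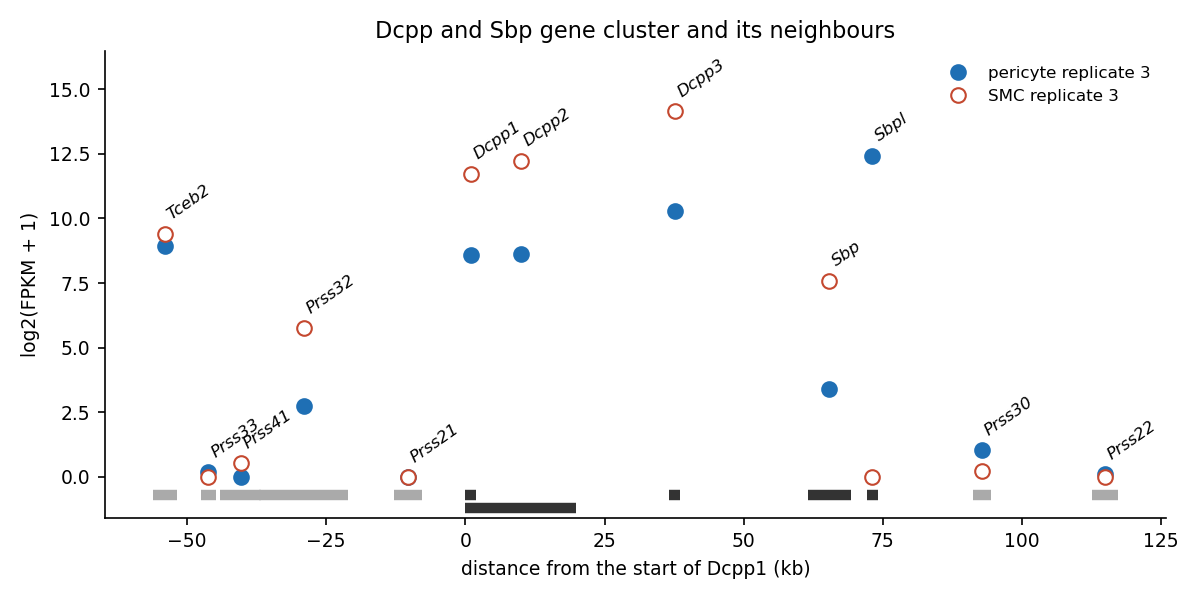
Levels of the genes of the Dcpp and Sbp cluster and its neighbours in the libraries numbered 3, as log2(FPKM + 1), against the distance from the start of Dcpp1 in kb. Filled points are pericyte replicate 3, open points SMC replicate 3, and bars at the foot show the annotated genes (dark, the 5 cluster genes, with Dcpp2 drawn lower; grey, neighbours), so that SMC replicate 3 lies above pericyte replicate 3 for 4 of the 5 cluster genes and Sbpl is the exception at 5537 against 0 FPKM.

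The genes that flank the cluster did not all behave like it. Prss32, a serine protease gene 21.1 kb before Dcpp1, had 0, 0, 5.67 and 0.182 FPKM in pericytes and 0, 0.026, 53.7 and 1.14 FPKM in SMCs, so replicate 3 was again the highest in both groups. Prss21, between Prss32 and Dcpp1, was listed at 0 in all libraries. Prss30, 17.2 kb after Sbpl, had 2.47, 1.7, 1.02 and 6.45 FPKM in pericytes and 0 to 0.186 FPKM in SMCs, with its highest value in pericyte replicate 4. Away from the cluster, Tspan13, next to Agr2, had 149 to 374 FPKM over the 8 libraries, and Umod (next to Gp2) and Spint3 (next to Wfdc2) were listed at 0 in all of them.

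Agr2 had 0.158, 0, 45.7 and 1.02 FPKM in pericytes and 0.933, 0.497, 575 and 21.7 FPKM in SMCs. Replicate 3 was the highest and replicate 4 the next in both groups. Wfdc2, like Dcpp3, was above 1 FPKM in every library. It had 9.63, 2.04, 49.3 and 1.71 FPKM in pericytes and 21.4, 5.76, 537 and 17.5 FPKM in SMCs. Here replicate 1 came after replicate 3 in both groups.

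Crisp1 had 0.214, 0.399, 17.1 and 0.033 FPKM in pericytes and 0, 0.0324, 215 and 4.84 FPKM in SMCs. Its annotated gene overlaps that of Crisp3 on the same strand, and Crisp3 had 2.17 to 4.34 FPKM in pericytes and at most 0.143 FPKM in SMCs, so the 2 genes did not move together. Gp2 had 0.072, 0, 20.5 and 0.024 FPKM in pericytes and 0, 0.142, 135 and 3.77 FPKM in SMCs. Oit1 had 0.0417, 0, 5.65 and 0.154 FPKM in pericytes and 0.611, 0.151, 84.2 and 2.48 FPKM in SMCs. For these 3 genes replicate 3 of each group stood alone among pericytes, and SMC replicate 4 lay between SMC replicate 3 and the other 2 SMC libraries.

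**Figure D2:**
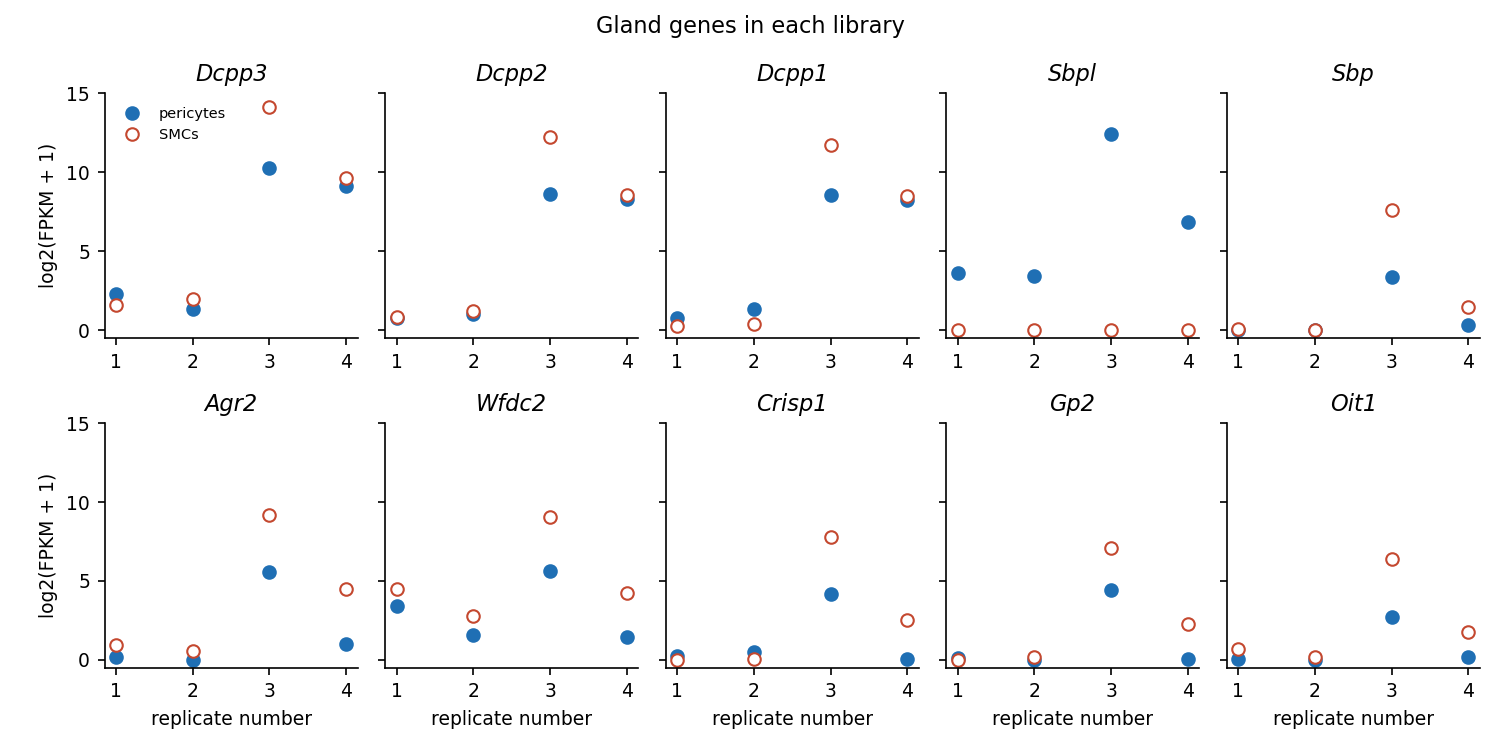
Level of each of the 10 gland genes in each library, as log2(FPKM + 1), against the replicate number; filled points are pericytes, open points SMCs, and each point is 1 library. Replicate 3 is the highest of its group for all genes but Sbpl in SMCs, which is at 0 in all 4, and Dcpp1, Dcpp2 and Dcpp3 are also high in replicate 4.

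In log2(FPKM + 1), the highest library exceeded the median of the other 3 by 2.68 (Oit1) to 8.83 (Sbpl) in pericytes, and by 4.86 (Wfdc2) to 12.17 (Dcpp3) in SMCs where Sbpl is left aside. The median over the 10 genes was 4.86 in pericytes and 7.60 in SMCs, against 0.39 and 0.32 over all genes tested. Replicate 3 was the highest of its group in both groups for 9 of the 10 genes, beside 4.72% of all genes tested. This pattern chose the genes, so nothing is read from that count.

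A stricter form of the pattern was met by few genes. Replicate 3 exceeded each other library of its group by over 2 log2 units in both groups for 17 genes (0.062% of those tested), 6 of which are described here: Agr2, Gp2, Crisp1, Sbp, Oit1 and Wfdc2. The smaller of the 2 leads was 4.53 for Agr2 and 2.24 for Wfdc2. The 11 other genes were Krt17, Krt14, Krt15 and Krt5 (keratins of basal epithelial cells), Krt23, Gpx2, Nupr1, Prss32, Muc19, Cbr2 and Aqp5 (the water channel of acinar cells). Aqp5, just inside the limit, led by 2.06, and Lrrc26, just outside it, by 1.98. The 3 Dcpp genes missed it because replicate 4 was high as well. Sbpl missed it because it was listed at 0 in SMCs.

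**Figure D3:**
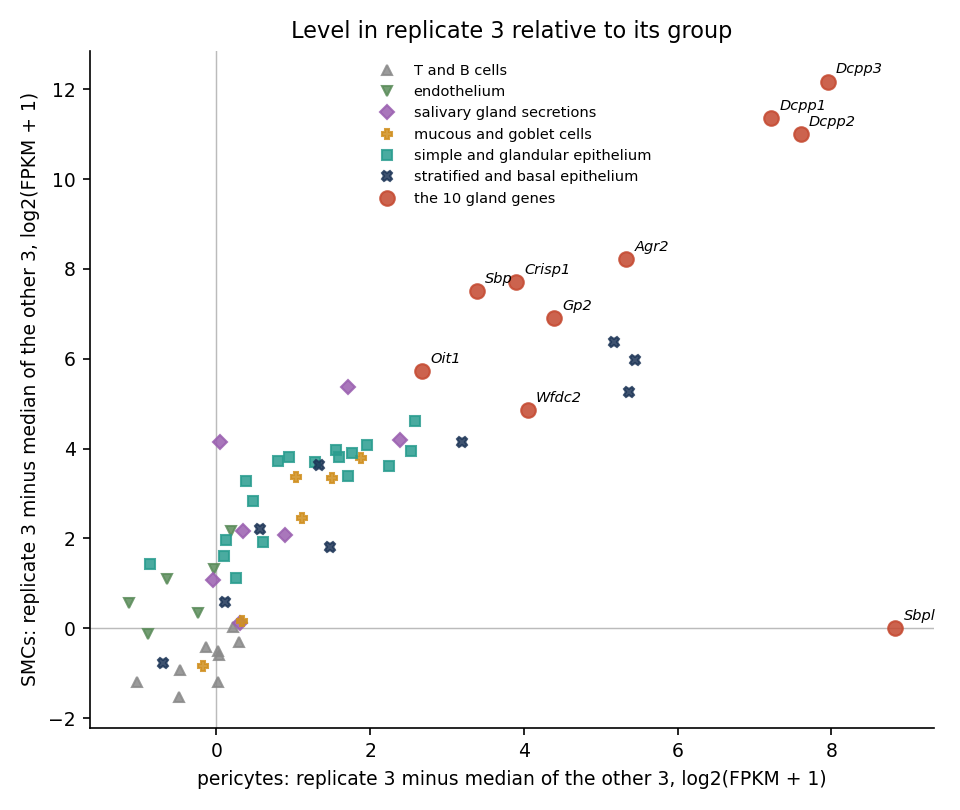
Difference between replicate 3 and the median of the other 3 libraries of its group in log2(FPKM + 1), pericytes on the horizontal and SMCs on the vertical axis, for the 10 gland genes (circles, named) and for the genes of 6 marker lists that reach 1 FPKM in a library. Of the gland genes, 9 lie at the upper right, Sbpl lies at 8.83 and 0, epithelial genes lie above 0 in SMCs apart from 1 gene, and T and B cell genes lie near 0 or below it.

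Replicate 4 divided the 10 genes. In pericytes, replicate 4 held 81.5% of the replicate 3 level of Dcpp1, 78.9% of that of Dcpp2 and 44.7% of that of Dcpp3, but 0.117% (Gp2) to 3.47% (Wfdc2) for the other 7. In SMCs, the values were 10.9%, 7.78% and 4.47% for Dcpp1, Dcpp2 and Dcpp3, and 0.93% (Sbp) to 3.77% (Agr2) for the other 6 that were detected. Pericytes and SMCs of replicate 4 had like levels of the Dcpp genes, with SMC to pericyte ratios of 1.2, 1.2 and 1.46, but Agr2 was 21.2-fold, Gp2 157-fold and Crisp1 147-fold higher in the SMC library, the last pair against pericyte levels of 0.024 and 0.033 FPKM. Replicates 3 and 4 were both above replicates 1 and 2 in both groups for Dcpp1, Dcpp2, Dcpp3, Sbp, Agr2 and Oit1, 6 of the 10 genes, beside 8.46% of all genes tested.

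In replicate 3 the SMC library exceeded the pericyte library by a similar factor for most of the genes. The ratio was 9.02 for Dcpp1, 12.2 for Dcpp2, 14.6 for Dcpp3, 20.2 for Sbp, 12.6 for Agr2, 10.9 for Wfdc2, 12.5 for Crisp1, 6.59 for Gp2 and 14.9 for Oit1, with a median of 12.5 over these 9 genes. Over the 7140 genes with at least 5 FPKM in both libraries the median was 0.937 and the range 0.00953 to 50.6. The 11 genes of simple and glandular epithelium at that level had ratios of 2.5 (Cdh1) to 12.0 (Krt19), with a median of 7.59. The basal keratins Krt17, Krt15, Krt5 and Krt14 had ratios of 2.06 to 2.38, below every one of the 9 gland genes. Each ratio is of 1 library over 1 library, so it carries no replicate error.

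**Figure D4:**
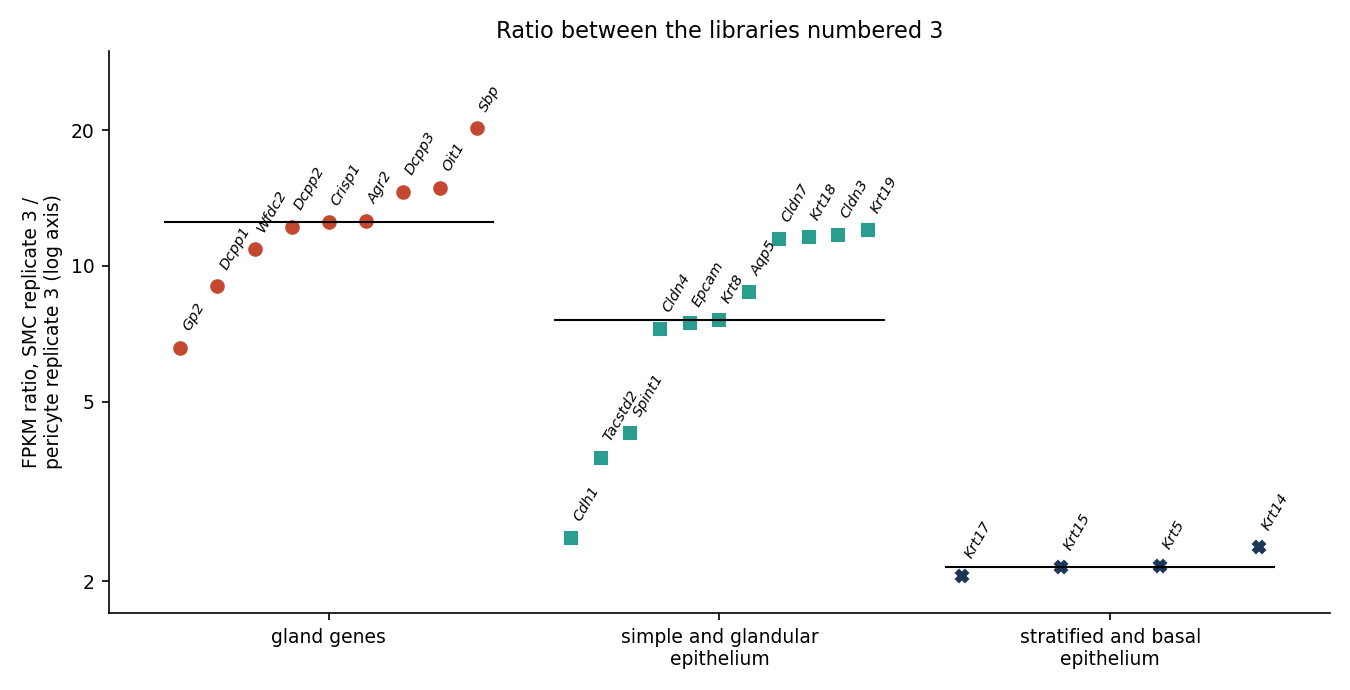
FPKM in SMC replicate 3 divided by FPKM in pericyte replicate 3, on a log axis, for genes with at least 5 FPKM in both libraries; each point is 1 gene and lines are medians (12.5, 7.59 and 2.16). The basal keratins lie between 2.06 and 2.38 and all 9 gland genes lie above them.

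Between the 2 groups, 9 of the 10 genes did not pass the test against the replicate spread, while 21.8% of all genes tested passed it. The test was limma's on log2(FPKM + 1) with Benjamini-Hochberg adjustment over all genes. The log2 fold change of pericytes over SMCs was −0.50 for Dcpp1 (SE 3.28, adjusted p = 0.94), −1.04 for Dcpp2 (SE 3.24, adjusted p = 0.866), −1.07 for Dcpp3 (SE 3.48, adjusted p = 0.872) and −1.36 for Sbp (SE 1.80, adjusted p = 0.683). For genes outside the cluster it was −2.11 for Agr2 (SE 2.17, adjusted p = 0.592), −2.10 for Wfdc2 (SE 1.53, adjusted p = 0.435), −1.53 for Oit1 (SE 1.43, adjusted p = 0.56), −1.34 for Crisp1 (SE 1.89, adjusted p = 0.701) and −1.24 for Gp2 (SE 1.80, adjusted p = 0.71). The median over the 10 genes was −1.29, against 0.02 over all genes tested. Without SMC replicate 3 the sign turned for Dcpp1, Dcpp2, Dcpp3, Sbp, Gp2 and Crisp1, to 0.32 (Gp2) to 1.66 (Dcpp1). Compared by replicate number, 5 of the genes were higher in the SMC library in replicate 1, 6 in replicate 2, 9 in replicate 3 and 9 in replicate 4.

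Sbpl was the exception: it was higher in pericytes, with a log2 fold change of 6.58 (SE 1.92, limma adjusted p = 0.0482). The 10 genes were chosen on these data for their replicate pattern, which Sbpl showed in pericytes alone. Its p-value is therefore not free of that choice. Sbpl was the only one of the 10 genes called, beside 21.8% of all genes. It was also the only one called with a log2 fold change above 2 in favour of pericytes, beside 3.24%. The size of the fitted change depends on the pseudocount, since SMCs were listed at 0, and was 9.84 with a pseudocount of 0.1 (limma adjusted p = 0.00552). Without pericyte replicate 3 it was 4.63 (limma adjusted p = 0.0132). The call also held when only genes at 1 FPKM or more in 4 libraries were tested (limma adjusted p = 0.00874). With replicates 1 and 2 against 3 and 4 as a covariate, limma adjusted p was 0.027. The call was lost when libraries were scaled to equal sums (limma adjusted p = 0.0595) and when the replicate number was fitted as a block (limma adjusted p = 0.0698). It was also lost when pericyte replicate 4 or any 1 of the SMC libraries was left out (limma adjusted p = 0.097 to 0.103 for the SMC libraries). Sbpl was 1 of 46 genes listed at 0 in all SMC libraries with at least 1 FPKM in every pericyte library, and 1 of 3 of those that reached 1000 FPKM. The reverse, 0 in all pericyte libraries with at least 1 FPKM in every SMC library, held for 6 genes. The T and B cell genes named above had their highest summed level in pericyte replicate 2 (5039 FPKM), where Sbpl was lowest among pericytes, and 2875 FPKM in replicate 3, where it was highest. Their part in the Sbpl difference was not tested.

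Genes of simple and glandular epithelium followed the 10 genes in part. In SMCs replicate 3 was the highest for all 18 of them, while in pericytes Krt18, Krt8, Krt19, Krt7 and Rab25 were highest in replicate 1. The median difference of replicate 3 from the median of the other 3 libraries was 1.11 log2 units in pericytes and 3.67 in SMCs. Their sum, most of it from Krt18, Krt8 and Krt19 in replicates 1 and 2, was lowest in replicate 4 of both groups, whereas Ehf, like the Dcpp genes, was second highest there. Of 18 such genes, all of which reached 1 FPKM, 13 had replicate 3 highest in both groups, beside 4.72% of all genes tested. Their summed level was 116, 58.3, 145 and 32.9 FPKM in pericyte replicates 1 to 4 and 292, 93.8, 1199 and 75.5 FPKM in SMC replicates 1 to 4. Krt18 had 90.5 FPKM in SMC replicate 1 and 10.3 FPKM in SMC replicate 4, where the Dcpp genes were in the reverse order. Krt8, its keratin partner, had 55.9 and 4.11 FPKM in the same libraries. The epithelial adhesion gene Epcam had 2.29 to 11.3 FPKM in pericytes and 20.8, 5.10, 84.7 and 2.50 FPKM in SMCs. None of the 18 genes passed the test between groups, beside 21.8% of all genes tested. With the replicate number fitted as a block, 2 were higher in SMCs. The part of epithelial RNA in the levels of the 10 genes was not tested.

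The basal keratins Krt17, Krt14, Krt15 and Krt5 were low in replicates 1 and 2 and high in replicate 3, and they made up most of the sum of the stratified and basal epithelium genes there. That sum was 164 FPKM in pericyte replicate 3 and 376 FPKM in SMC replicate 3 against at most 26.6 FPKM elsewhere. Of 15 rows of the list tested, 9 had replicate 3 highest in both groups, beside 4.72% of all genes tested. By limma 0 differed between groups (adjusted p below 0.05), beside 21.8% of all genes. With the replicate number fitted as a block, 4 were higher in SMCs. Krt14 had 0.287, 0.0535, 52.2 and 3.20 FPKM in pericytes and 2.24, 1.23, 125 and 7.03 FPKM in SMCs. Krt17 had 55.5 FPKM in pericyte replicate 3 and 114 FPKM in SMC replicate 3, and at most 4.33 FPKM in the other libraries. The keratins of differentiated skin, Krt1 and Krt10, and the cornified envelope gene Lor did not share the pattern to that extent, with Krt10 lowest in replicate 3 of both groups, Krt13 and Dsg3 at most 0.106 FPKM, and Lor at most 0.186 FPKM.

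Secretions that mark single glands differed from each other. Of 12 salivary rows tested, 3 had replicate 3 highest in both groups (Muc19, Smgc and Egf), beside 4.72% of all genes tested. Smgc, a mucin-like product of the sublingual and neonatal submandibular glands, was listed at 0 in replicates 1 and 2 of both groups and in pericyte replicate 4, and had 2.27 FPKM in pericyte replicate 3, 40.0 FPKM in SMC replicate 3 and 1.0 FPKM in SMC replicate 4. Muc19, the gel-forming mucin of the sublingual gland, had 4.25 FPKM in pericyte replicate 3 and 17.3 FPKM in SMC replicate 3. Smr2 had 24.7 FPKM in SMC replicate 3 and at most 0.797 FPKM elsewhere. Klk1, a kallikrein of the salivary glands and kidney, was higher in pericytes (21.4 to 59.2 against 0.726 to 3.70 FPKM, limma adjusted p = 0.000506), and the amylase gene Amy1 was higher in SMCs (11.2 to 14.7 against 0.571 to 2.89 FPKM, limma adjusted p = 0.00148). Klk1 had 3.70 FPKM in SMC replicate 3 and at most 1.27 FPKM in the other SMC libraries. Prol1, Prb1, Prh1 and Klk1b22 were listed at 0 in all libraries.

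Markers of the male tract were also few. Of 13 prostate and seminal vesicle genes 3 reached 1 FPKM, and 0 of the 8 tested differed between groups, beside 21.8% of all genes tested. Hoxb13, a homeobox gene of the prostate and tail region, had 3.81 FPKM in SMC replicate 3 and 0.531 FPKM in pericyte replicate 3. The secretory products Pbsn, Msmb, Svs2, Svs4 and Svs6 were listed at 0 in all 8 libraries. Of 12 epididymis genes, where Crisp1 is best known, none reached 1 FPKM in any library.

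Mucous cell genes split in the same way. Of 14 tested, 5 had replicate 3 highest in both groups, beside 4.72% of all genes tested. Clca1 alone differed between groups, beside 21.8% of all genes, and was higher in SMCs (log2 fold change −1.91, SE 0.255, limma adjusted p = 0.00185). Creb3l4 had 52.0 FPKM, the mucous cell regulator Spdef 16.8 FPKM, Ern2 9.40 FPKM and Fcgbp 6.18 FPKM in SMC replicate 3, against at most 4.46 FPKM of each in the pericyte libraries. The mucins Muc2, Muc5ac, Muc5b and Muc6 had at most 0.474 FPKM. Glycam1, listed as a mammary gene and also made by high endothelial venules, ran the other way, with 185 and 234 FPKM in SMC replicates 1 and 2 and 15.7 and 14.7 FPKM in SMC replicates 3 and 4. Of 12 exocrine pancreas genes tested, Prss2 alone passed, higher in pericytes at 0.821 to 2.01 FPKM.

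Relatives of the 10 genes did not follow them as a class. Of 17 tested from the AGR, CRISP, WAP four-disulfide core, FAM3, uromodulin-like and jacalin-domain families, 3 were higher in pericytes (Slpi, Crisp3 and Glipr1) and 6 in SMCs (Oit3, Wfdc1, Crispld1, Crispld2, Txndc12 and Fam3a), beside 10.6% and 11.2% of all genes tested. Slpi, a secreted protease inhibitor with WAP domains like Wfdc2, had 51.6 to 214 FPKM in pericytes and 3.94 to 19.6 FPKM in SMCs (limma adjusted p = 0.0088). Crispld1 had 1.93 to 7.24 FPKM in pericytes and 31.8 to 91.4 FPKM in SMCs (limma adjusted p = 0.00169). Wfdc15b and Fam3b kept the replicate 3 order at low level, with 1.16 and 0.802 FPKM in pericyte replicate 3 and 4.04 and 2.51 FPKM in SMC replicate 3. Agr3 and Umod, the nearest relatives of Agr2 and Gp2 and their neighbours in the genome, were listed at 0 throughout.

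The genes whose profile was most like the mean of the 10 were ranked by Pearson's r over the 8 libraries, after centring each group, among 11378 genes that reached 5 FPKM in a library. The 15 nearest had r from 0.985 to 0.96 and were Krt15, Itpkc, Krt17, Krt14, Vipr1, Krt5, Ehf, Slc7a1, Lamb3, Pwwp2b, Kcnk5, Map3k1, Tcf7l2, Zmiz2 and Cyp2f2. The points are the same 8 libraries for every gene, and r is given as a description. Krt15, the first, had 39.3 and 84.6 FPKM in replicate 3 of pericytes and SMCs. Itpkc, the second, moved little, from 8.25 to 11.5 FPKM in pericytes and from 15.7 to 30.8 FPKM in SMCs. Ehf, an ETS factor of epithelium, had 4.83 and 4.07 FPKM in pericyte replicates 3 and 4 and 38.3 FPKM in SMC replicate 3.

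Replicate numbers also separated sex-linked genes. Xist, the RNA that coats the inactive X chromosome, had 8.46 and 9.81 FPKM in pericyte replicates 1 and 2 and 7.93 and 7.80 FPKM in SMC replicates 1 and 2, and at most 0.0118 FPKM in replicates 3 and 4. The Y-linked helicase gene Ddx3y had 43.6 and 37.2 FPKM in pericyte replicates 3 and 4 and 30.2 and 38.5 FPKM in SMC replicates 3 and 4, and at most 0.0316 FPKM in replicates 1 and 2. Eif2s3y, Uty and Kdm5d had the same order. The 10 genes' mean log2(FPKM + 1) was 0.74 to 1.15 in the 4 libraries with Xist, and 6.59, 3.57, 8.52 and 4.36 in pericyte replicates 3 and 4 and SMC replicates 3 and 4. Replicates 3 and 4 had like Y-linked levels but differed in the gland genes, which summed to 7707 and 1299 FPKM in pericytes (1.07% and 0.166% of the library) and to 28225 and 1615 FPKM in SMCs (4.03% and 0.231%). In replicates 1 and 2 they summed to 11.2 to 26.8 FPKM. The labels do not give the sex of the mice in each library. By these RNAs, replicates 1 and 2 of both groups came from females and replicates 3 and 4 from males. Sex and any other difference between these 2 sets of libraries cannot be told apart. The part of sex in the levels of the 10 genes was not tested.

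**Figure D5:**
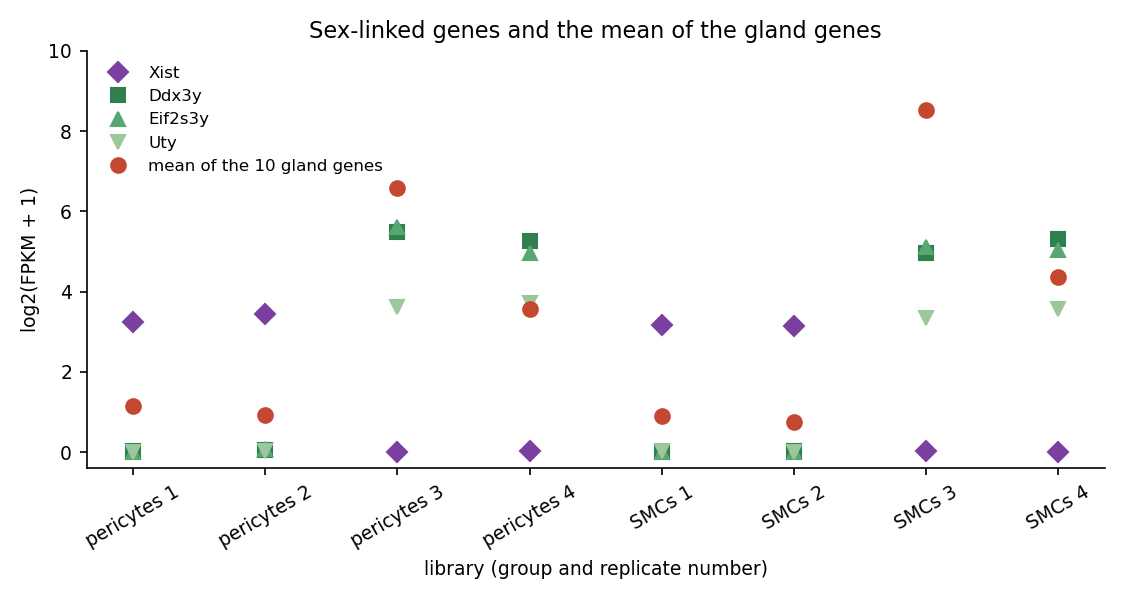
Levels of Xist and of 3 Y-linked genes (Ddx3y, Eif2s3y and Uty) and the mean of the 10 gland genes in each library, as log2(FPKM + 1), with pericyte libraries on the left and SMC libraries on the right. The 4 libraries with Xist have means of 0.74 to 1.15, and the 4 with Y-linked RNA have means of 3.57 to 8.52.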

How the data were processed

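Bulk RNAseq of 8 libraries (4 of pericytes, 4 of SMCs) was used. The authors made cDNA with a SMART-Seq kit and libraries with Nextera XT, read both ends over 150 bases, aligned reads to NCBI Build 37 with Bowtie2 and TopHat against an Ensembl annotation, and deposited FPKM per gene and library, without a log or a filter. The program behind the FPKM and the use of strand are not given in the sources used here. Numbers of reads are not part of these values, so depth is unknown and no counting error is given. Summed FPKM was 690247 to 1190435 in pericyte and 656405 to 737839 in SMC libraries.

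Values were taken as log2(FPKM + 1), and the added 1 understates changes of low genes. Pericytes and SMCs were compared with limma 3.58.1 (lmFit and eBayes, two-sided) in R 4.3.3 over 27414 genes, with Benjamini-Hochberg adjustment and calls at an adjusted p below 0.05, and also with a log2 fold change above 2. The fit was checked on simulated data with independent normal noise, where 191 of 200 genes changed by 4 log2 units were recovered. The simulation had no deviations shared by same-numbered libraries and no genes at 0 in a whole group, so it does not cover such genes. Libraries pool several sorts and are not shown to be separate mice, so p-values measure the spread among these libraries. The labels give 1 batch for all, while the paper names batch effects from combining sorts as a possible source of variation among replicates.

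The members and gene lists were chosen with earlier results of these data known. Genes named are the 10 members, up to 4 genes per list with the highest FPKM, list genes past the test, genomic neighbours and the 15 nearest profiles. List genes named for a library pattern or a value of 0 were chosen after their values were seen. Each of these was tried instead: adding 0.1 before the logarithm, testing only genes at 1 FPKM or more in 4 libraries or more, TPM and quantile scaling, the replicate block and each library left out. Leaving out both libraries numbered 3, and replicates 1 and 2 against 3 and 4 as a covariate, were chosen after seeing the data. That covariate follows the split of the sex-linked genes. Gene positions are from GENCODE version 1 for mouse, and sequences were read from NCBI Build 37. Python 3.11.15 was used, with Biopython 1.88 for alignments. A list gene and a sequence are not reported here.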

Additional observations from a re-analysis of the deposited data

Results flagged for a closer look

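In 4 of 19 groups of 4 libraries looked at, the highest library stood far from the others by Dixon's ratio (gap over range of log2(FPKM + 1), above the critical value for 4 libraries), and each time it was pericyte replicate 3. The ratio was 0.899 for Sbp, 0.977 for Gp2, 0.894 for Crisp1 and 0.924 for Oit1, at 9.51, 20.5, 17.1 and 5.65 FPKM in that library. The genes were selected on this pattern, so the ratios are a description and not a test.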

How the results depend on the processing

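Over all genes, 5977 were called. This fell to 3689 with both libraries numbered 3 left out and ran from 4832 to 6536 with 1 library left out. With replicates 1 and 2 against 3 and 4 as a covariate it was 7723. With a log2 fold change above 2 there were 1616 calls, 2749 with a pseudocount of 0.1, and 1463 to 1644 with 1 library left out. Of the 10 genes 1 (Sbpl) was called, and 0 with TPM scaling, 0 with the replicate block (adjusted p = 0.0698) and 0 to 1 with 1 library left out, where the call was lost without pericyte replicate 4 and without each SMC library. In these last cases fewer libraries were tested, and otherwise the cause was not tested. The other 9 genes were not called in any setting. With the replicate block their limma adjusted p ran from 0.0504 (Wfdc2) to 0.724 (Dcpp1). The replicate block also raised the calls higher in SMCs from 1 to 6 of 9 pericyte markers, from 0 to 1 SMC marker, from 0 to 2 genes of simple epithelium and from 0 to 4 of basal epithelium.

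Signs of uncalled genes turned. Dcpp1 was at 0.39 without both libraries numbered 3, and with 1 library left out the log2 fold change ran from −2.15 to 1.66 for Dcpp1, −2.66 to 1.13 for Dcpp2, −2.82 to 1.37 for Dcpp3, −2.18 to 0.41 for Sbp, −2.34 to 0.32 for Gp2 and −2.32 to 0.38 for Crisp1. The other 4 genes kept their sign. Replicate 3 was the highest for 10 genes in pericytes and 9 in SMCs under each scaling and pseudocount tried. Same-numbered libraries deviated together with correlations of 0.0794, 0.319, 0.437 and 0.474, and 5 of 8 libraries correlated best with their own number, so the replicate numbers were not taken as pairs.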
